A study of Mus musculus with 15 samples.

Results

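The nuclear-encoded subunits and assembly factors of respiratory complexes II, III and IV were examined in sorted mouse islet cells. Members were all listed genes whose symbol began with Cox and a digit or with Uqcr, together with Sdha, Sdhb, Sdhc, Sdhd, Cyc1, Cycs, Surf1, Sco1, Sco2 and Bcs1l, which gave 44 of the 23699 entries in each library's gene table. They comprised 4 subunits of complex II, 9 of complex III, 17 of complex IV, 11 assembly factors and 3 other genes. The other genes were Cycs, which encodes the mobile electron carrier cytochrome c, Cox7a2l, a factor that helps complexes III and IV associate into supercomplexes, and Cox4nb, which matched by its symbol only and encodes a subunit of the endoplasmic reticulum membrane complex.

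Poly-A RNA was sequenced from islet cells that carried a cre-activated red fluorescent label and were then sorted by their aldehyde dehydrogenase (ALDH) activity with the fluorescent substrate aldefluor. The 15 libraries fell into 4 groups, with 3 ALDH- and 2 ALDH+ libraries from control mice and 5 ALDH- and 5 ALDH+ libraries from knockout mice. Control mice were heterozygous for Foxo1, Foxo3 and Foxo4 per the labels, whereas the methods describe wild-type controls, and knockout mice are labelled as lacking all 3 genes, through cre. All mice were of a mixed 129JC57BL/6 background. Recombination was driven by RIP-Cre, from the rat insulin promoter, or by Pdx-Cre, which acts in the precursors of all pancreatic lineages. Pdx-Cre was used in 1 ALDH- control, 1 ALDH+ control, 2 ALDH- knockout and 2 ALDH+ knockout libraries, so each driver was present in all 4 groups. Mice were 6 months old per the methods, which describe animals with the rat insulin promoter driver, and the labels tie no library to individual animals, so p-values measure the spread between these libraries, which may be technical in part.

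The respiratory chain passes electrons along the inner mitochondrial membrane and pumps protons for ATP synthesis. Complex II (succinate dehydrogenase) feeds electrons from the citric acid cycle into ubiquinone, complex III hands them from ubiquinone to cytochrome c, and complex IV (cytochrome c oxidase) passes them to oxygen. Beta cells couple this oxidation to insulin secretion, since the ATP made from glucose closes the channels that hold the membrane at rest. Complexes III and IV also contain subunits encoded in mitochondrial DNA, which were not analysed here.

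Levels are given as fragments scaled to transcript length and library size (FPKM) after rescaling of each library by a trimmed mean of log ratios, and fold changes are on the log2(rescaled FPKM + 1) scale, which understates changes of low genes. A gene was tested if its mean was at least 1, which 39 of the 44 members and 11254 genes in all passed, and a gene was called if its adjusted p in limma, over all tested genes and with cre driver as a covariate, was under 0.05. Between 6718758 and 9603926 fragments per library stood behind the 22924 genes kept, of which members held 14365 to 37478. They were recovered from the width of the confidence intervals in the files. Of 8 listed beta cell markers 6 had a usable estimate, and their sum, nearly all of it Iapp, was between 32950 and 121300. Ins1 and Ins2 had none, so insulin is in neither the fragment totals nor the shares taken of them. Iapp, the islet amyloid hormone, was lowest at 31900 in ALDH+ control 1 and 43300 in ALDH+ knockout 3. Foxo1 ranged from 12.1 to 19.5 in the control libraries and from 0.0978 to 4.05 in the knockout libraries, and Aldh1a3, an aldehyde dehydrogenase, from 0.482 to 4.19 in ALDH- and from 22.2 to 78.1 in ALDH+ libraries, so Foxo1 and Aldh1a3 followed the labels. Foxo3 did not follow the genotype label, with 13.8 to 22.3 in control and 10 to 31 in knockout libraries, so its loss was not seen in the RNA. Foxo4 was near 0 throughout, at 0 to 1.3 in control and 0 to 0.0708 in knockout libraries. Its values leaned with the label but were too low to be tested, and knockout is used below as the label's name. ALDH+ control 1 and ALDH+ knockout 3 stood apart, with members taking 0.200% and 0.222% of their fragments against 0.274% to 0.478% elsewhere, and the results that rest on them are also given without them.

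Within the set, levels spanned a wide range. Cox8a, a small transmembrane subunit of complex IV, was the highest member with a mean of 577.0, followed by Cox6a1 with 468.4 and Uqcrq with 374.9. All 4 complex II subunits were expressed, with means from 54.1 for the iron-sulfur subunit Sdhb and 54.3 for the flavoprotein Sdha to 97.7 for Sdhd and 104.5 for Sdhc, the last 2 being the membrane anchors. Complex III ranged from a mean of 33.6 for the core protein Uqcrc1 to that of Uqcrq. Assembly factors were lower, from 2.12 for Sco1, which delivers copper to complex IV, to 28.6 for Surf1, apart from the copper chaperone Cox17 with 236.2.

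Of the tissue-specific isoforms, most were at or near 0. Cox8b and Cox8c were listed at 0 in all 15 libraries, Cox6b2 in 14, and Cox4i2 and Cox7b2 in 12, with values of at most 1.87, 0.806 and 1.63 elsewhere, and these were the 5 members that were not tested. Their ubiquitous counterparts were abundant, with means of 258.0 for Cox4i1, 268.3 for Cox6b1, 167.8 for Cox7b and 577.0 for Cox8a. Cox7a1, the muscle isoform of subunit 7a, had a mean of 2.19 and was listed at 0 in 7 libraries, against 164.9 for its ubiquitous counterpart Cox7a2. The muscle isoform Cox6a2 was the exception, with a mean of 92.3.

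**Figure D1:**
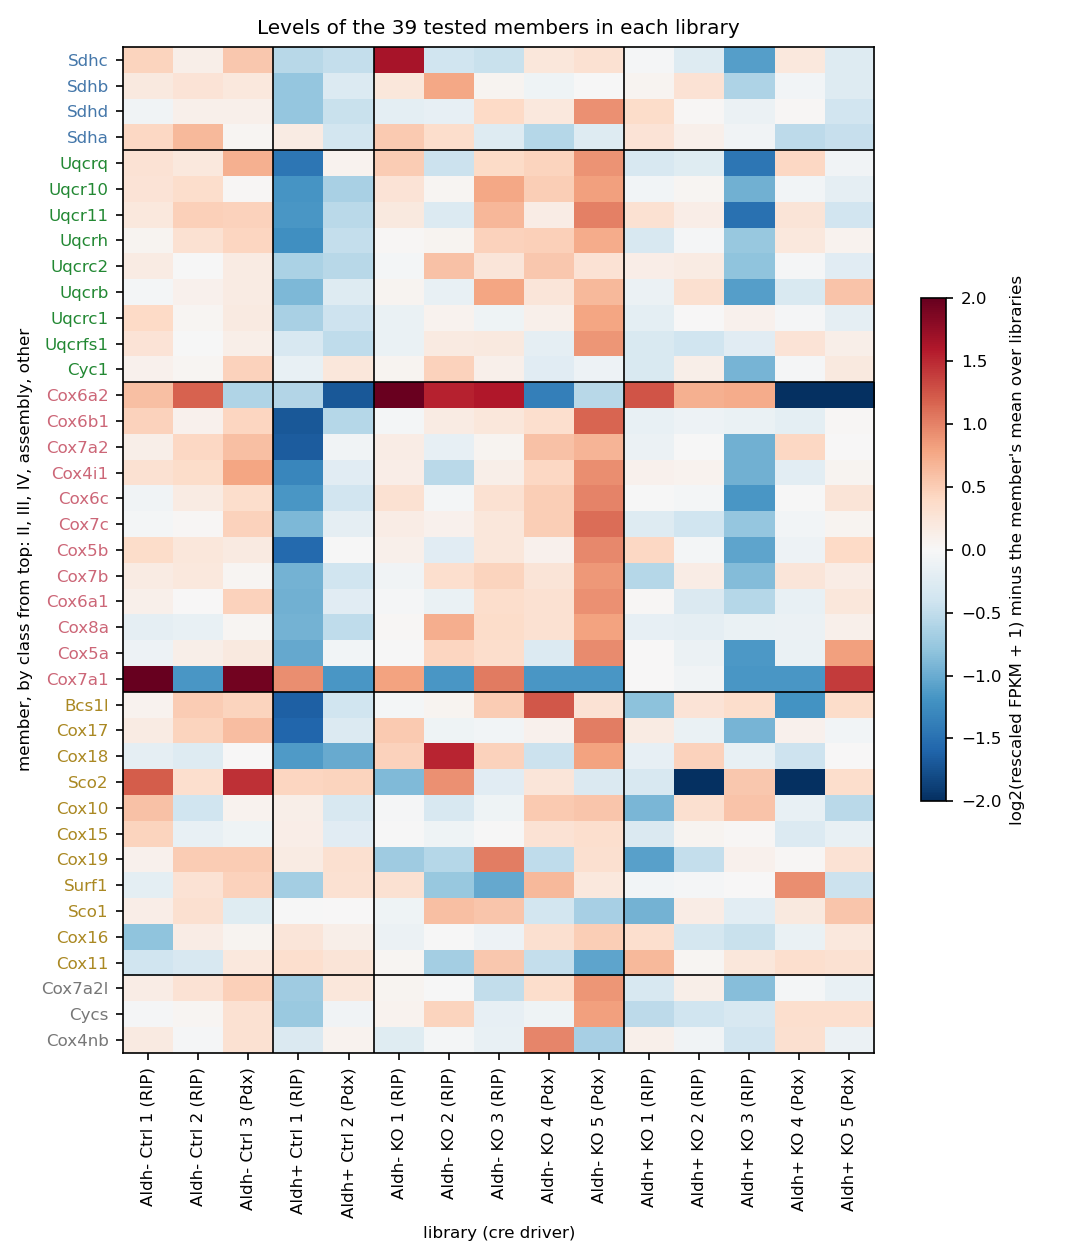
Heat map of the 39 tested members (rows, ordered by class and then by fold change) in the 15 libraries (columns, with cre driver), as log2(rescaled FPKM + 1) minus the member's mean, with colours clipped at -2 and 2. The ALDH+ control 1 and ALDH+ knockout 3 columns are low over most subunits, and ALDH- knockout 5 is high.

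Promoters of 31 members were found by symbol in RefSeq sequence of build GRCm38.p6, as windows of 250 bases before to 50 after the start. They were searched on both strands for the core of the site of nuclear respiratory factor 1 (NRF1) and for CCGGAAG, a site of ETS factors such as GABP, both known from genes of the respiratory chain. The NRF1 letters were found in 4 of 31 members (12.9%) and in 4.6% of 32851 promoters, and the ETS letters in 13 of 31 (41.9%) against 8.86%. By class, the ETS letters were in 6 of 9 assembly factors, 2 of 3 complex II, 2 of 5 complex III and 3 of 12 complex IV subunits. The NRF1 letters were in 0 of 9, 2 of 3, 1 of 5 and 1 of 12 of the same classes. The 250 bases before the start are shown for Uqcrh and Cox6b1, whose levels are described by ALDH fraction, and for Cox6a1 and Sdha, which differed between cre drivers and hold NRF1 letters. Uqcrh, Cox7c, Cox7a2 and Cycs, which also differed between cre drivers, hold no NRF1 letters. All lie on the minus strand, with Uqcrh at chr4:116075071-116075320, Cox6b1 at chr7:30626115-30626364, Cox6a1 at chr5:115348959-115349208 and Sdha at chr13:74350241-74350490, and capitals mark the matches.
Uqcrh: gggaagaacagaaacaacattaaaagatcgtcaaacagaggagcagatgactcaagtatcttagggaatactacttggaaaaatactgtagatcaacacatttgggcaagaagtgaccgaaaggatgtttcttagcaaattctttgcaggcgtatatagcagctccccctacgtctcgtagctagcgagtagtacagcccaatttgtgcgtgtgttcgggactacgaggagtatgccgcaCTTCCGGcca
Cox6b1: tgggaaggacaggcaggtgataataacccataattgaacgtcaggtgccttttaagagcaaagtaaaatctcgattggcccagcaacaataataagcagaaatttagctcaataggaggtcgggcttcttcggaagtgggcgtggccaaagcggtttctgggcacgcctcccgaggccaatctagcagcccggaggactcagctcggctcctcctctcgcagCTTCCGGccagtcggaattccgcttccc
Cox6a1: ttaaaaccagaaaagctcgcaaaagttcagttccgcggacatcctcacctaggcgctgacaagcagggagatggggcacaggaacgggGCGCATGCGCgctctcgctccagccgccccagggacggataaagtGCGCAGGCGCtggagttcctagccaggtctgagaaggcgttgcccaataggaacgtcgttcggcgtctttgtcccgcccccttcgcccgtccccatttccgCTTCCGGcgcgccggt
Sdha: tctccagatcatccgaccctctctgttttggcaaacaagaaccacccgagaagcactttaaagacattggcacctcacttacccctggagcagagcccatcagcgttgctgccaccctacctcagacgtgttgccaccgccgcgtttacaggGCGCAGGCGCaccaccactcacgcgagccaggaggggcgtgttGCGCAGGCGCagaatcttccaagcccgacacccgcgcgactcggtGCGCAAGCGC
Uqcrh and Cox6b1 each hold 1 match, to the ETS letters. Cox6a1 holds 2 matches to the NRF1 letters and 1 to the ETS letters, and Sdha holds 3 to the NRF1 letters. A match is a description of the letters and not a site of binding.

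The first question was whether ALDH+ cells, which the study examined as failing beta cells, differed from ALDH- cells in these genes. For wild-type mice of this study, the paper reports lower RNA of part of the complex IV subunits in ALDH+ cells. Its list of lower transcripts also holds Uqcrh, Uqcr10 and Cox17. The direction of these genes was therefore known beforehand. Averaged over genotypes, 15 of 39 members were lower in ALDH+ cells and 0 were higher by limma, where 3.77% of all tested genes were lower, 2.22% higher and 5.99% called in either direction. At an unadjusted p under 0.05, 28 members passed, against 20.8% of all genes. The median log2 fold change was -0.60 over members against -0.02 over all tested genes, and 37 of 39 were negative. Of the subunits, 5 of 9 for complex III, 9 of 12 tested for complex IV and 0 of 4 for complex II were called, and of the assembly factors 1 of 11. The medians were -0.73 for complex IV, -0.60 for complex III, -0.50 for complex II and -0.17 for assembly factors, and the difference between classes was not tested. Cox17 was the called assembly factor, and without it the other 10 had a median of -0.16. In bulk RNA, less RNA per cell and fewer cells with a high level cannot be told apart.

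**Figure D2:**
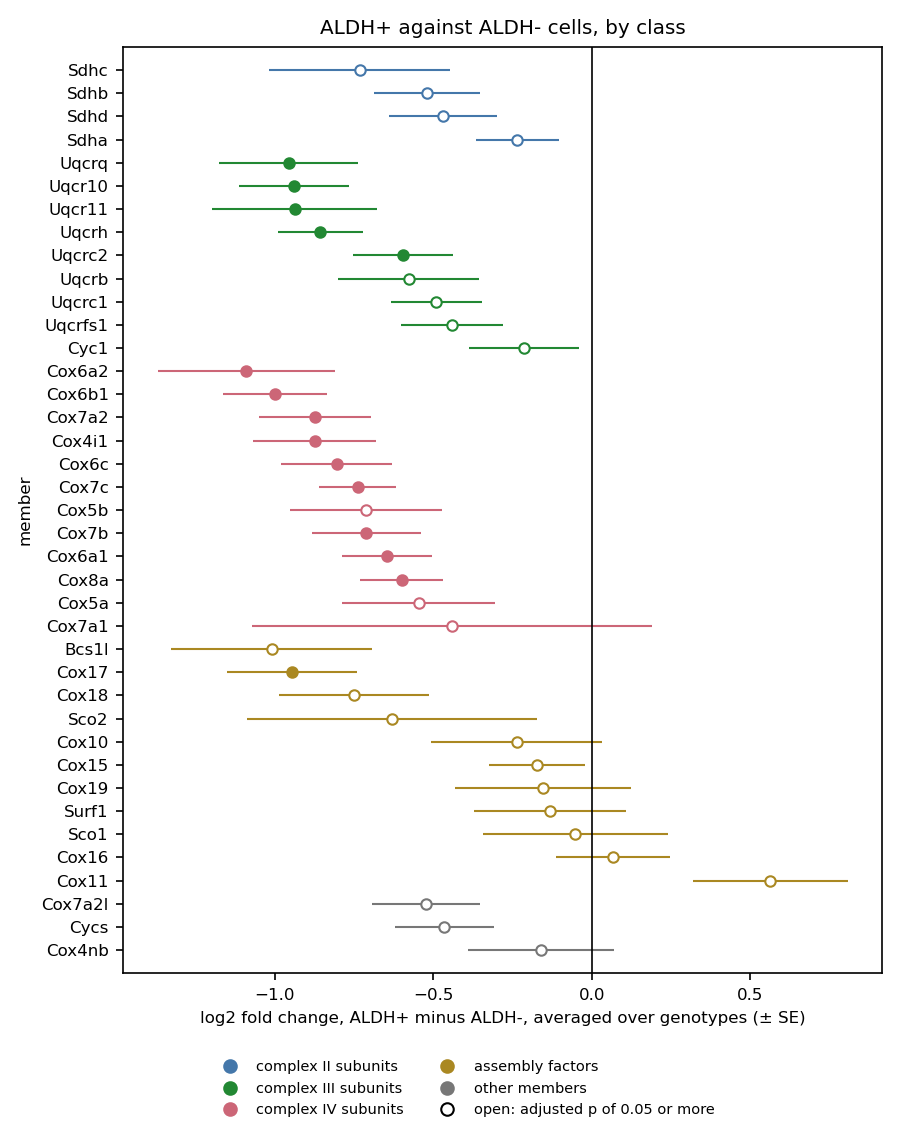
Log2 fold change (points) ± SE (bars) of each tested member, ALDH+ minus ALDH-, averaged over genotypes, coloured by class. Filled points are the 15 members called by limma, and all 25 subunits of complexes II to IV lie below 0 while assembly factors scatter from -1.01 to 0.56.

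In complex III, Uqcrh (mm9 chr4:115739570-115747675, with a transcript of 547 bases), the hinge protein between cytochrome c1 and cytochrome c, had the smallest p of all members. It was at 259, 309 and 337 in the ALDH- control, 106 and 179 in the ALDH+ control, 253, 260, 344, 348 and 418 in the ALDH- knockout and 199, 245, 147, 290 and 262 in the ALDH+ knockout libraries. Both ALDH+ control libraries lay below every ALDH- library, and the knockout fractions overlapped. The log2 fold change was -0.86 ± 0.13 (SE; limma adjusted p = 0.00423), and an exact permutation test within genotype and cre driver gave a two-sided p of 0.00139, the smallest its 720 arrangements allow. Uqcr10, a small membrane subunit, was lower, at -0.94 ± 0.17 (SE; limma adjusted p = 0.00722). It was at 329, 349 and 276 in the ALDH- control, 120 and 174 in the ALDH+ control, 329, 281, 466, 382 and 485 in the ALDH- knockout and 261, 279, 140, 263 and 241 in the ALDH+ knockout libraries. Every ALDH+ library was here below every ALDH- library of its genotype. Uqcrq, another small subunit, was lower, at -0.96 ± 0.22 (SE; limma adjusted p = 0.0189). It was at 419, 397 and 562 in the ALDH- control, 125 and 360 in the ALDH+ control, 485, 254, 448, 465 and 638 in the ALDH- knockout and 274, 288, 124, 458 and 326 in the ALDH+ knockout libraries. Its fractions overlapped in knockout cells, through ALDH+ knockout 4 and ALDH- knockout 2. Uqcr11 and the core protein Uqcrc2 were lower, at -0.94 and -0.60 (limma adjusted p of 0.0437 and 0.0353). Uqcrc1, the partner of Uqcrc2 in the core, missed the threshold at -0.49 (limma adjusted p = 0.0557), as did Uqcrb at -0.58 and the Rieske iron-sulfur protein Uqcrfs1 at -0.44. Cyc1, which is cytochrome c1 itself, had the smallest difference of all tested subunits at -0.22.

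In complex IV, Cox6b1 (mm9 chr7:31401993-31411170, with a transcript of 618 bases), which faces the intermembrane space, was lower in ALDH+ cells. It was at 343, 264 and 335 in the ALDH- control, 76.5 and 168 in the ALDH+ control, 242, 278, 290, 316 and 558 in the ALDH- knockout and 225, 232, 228, 216 and 252 in the ALDH+ knockout libraries. Of the 5 ALDH+ knockout libraries, 4 lay below every ALDH- knockout library, and ALDH+ control 1 was the lowest of all and ALDH- knockout 5 the highest. The log2 fold change was -1.0 ± 0.16 (SE; limma adjusted p = 0.00511). Cox7c (mm9 chr13:86184403-86186400, with a transcript of 540 bases), a small transmembrane subunit, differed by -0.74 ± 0.12 (SE; limma adjusted p = 0.00511). It was at 148, 155 and 210 in the ALDH- control, 81.7 and 136 in the ALDH+ control, 169, 163, 179, 216 and 331 in the ALDH- knockout and 127, 116, 89.3, 146 and 159 in the ALDH+ knockout libraries. With Uqcr10 it was 1 of 2 members whose ALDH+ libraries lay below every ALDH- library in knockout as well as in control cells.

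Cox4i1, the regulatory subunit that is among the first assembled, was lower, at -0.87 ± 0.19 (SE; limma adjusted p = 0.0154). It was at 297, 308 and 414 in the ALDH- control, 96.5 and 204 in the ALDH+ control, 262, 165, 260, 318 and 458 in the ALDH- knockout and 254, 252, 123, 206 and 250 in the ALDH+ knockout libraries. ALDH+ control 1 and ALDH+ knockout 3 were its lowest libraries. Cox7a2, the ubiquitous isoform of subunit 7a, was lower, at -0.87 ± 0.18 (SE; limma adjusted p = 0.01). It was at 166, 204 and 234 in the ALDH- control, 48 and 146 in the ALDH+ control, 170, 136, 160, 231 and 246 in the ALDH- knockout and 142, 153, 78.3, 205 and 154 in the ALDH+ knockout libraries. The same 2 libraries were lowest, and the control fractions were apart. The ALDH+ knockout libraries other than ALDH+ knockout 3 fell among the ALDH- knockout ones. Cox6c, a small transmembrane subunit, was lower, at -0.81 ± 0.17 (SE; limma adjusted p = 0.0137). It was at 236, 277 and 319 in the ALDH- control, 111 and 190 in the ALDH+ control, 308, 241, 307, 350 and 495 in the ALDH- knockout and 247, 241, 111, 248 and 297 in the ALDH+ knockout libraries. ALDH+ control 1 and ALDH+ knockout 3 were lowest once more, and the control fractions were apart. Cox7b, another of the small transmembrane subunits, was lower, at -0.71 ± 0.17 (SE; limma adjusted p = 0.0253). It was at 178, 184 and 164 in the ALDH- control, 82.1 and 120 in the ALDH+ control, 151, 202, 217, 192 and 290 in the ALDH- knockout and 107, 177, 86.4, 189 and 176 in the ALDH+ knockout libraries. Both control fractions were apart and the knockout fractions overlapped. The remaining calls were Cox6a2 (-1.09), Cox6a1 (-0.65) and Cox8a (-0.60), with limma adjusted p of 0.031, 0.0156 and 0.0136, whose libraries are given with the comparisons of cre driver and genotype. Cox5a and Cox5b, the matrix-facing subunits, were at -0.55 and -0.71 and did not pass the test, and the muscle isoform Cox7a1 was at -0.44 with an SE of 0.63. It was at 8.36, 0 and 7.52 in the ALDH- control, 3.24 and 0 in the ALDH+ control, 2.9, 0, 3.58, 0 and 0 in the ALDH- knockout and 1.25, 1.12, 0, 0 and 4.91 in the ALDH+ knockout libraries. It was listed at 0 in libraries of all 4 groups.

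No complex II subunit was called. Sdhb, the iron-sulfur subunit, had the smallest p of the 4, with a log2 fold change of -0.52. It was at 59.9, 63.3 and 60.5 in the ALDH- control, 30.2 and 43.1 in the ALDH+ control, 61.4, 90, 54.7, 49.5 and 52.2 in the ALDH- knockout and 54.4, 64, 33.9, 50.6 and 43.6 in the ALDH+ knockout libraries. Its control fractions did not overlap while the knockout fractions did. The membrane anchors Sdhc and Sdhd were at -0.73 and -0.47. Sdhc was at 128, 102 and 138 in the ALDH- control, 64 and 67.6 in the ALDH+ control, 298, 71.3, 69, 110 and 116 in the ALDH- knockout and 93.1, 78.8, 43.5, 109 and 78.3 in the ALDH+ knockout libraries. Sdhd was at 90.1, 102 and 101 in the ALDH- control, 54.6 and 68.5 in the ALDH+ control, 82.4, 84, 125, 109 and 177 in the ALDH- knockout and 122, 95.2, 87, 96 and 71.8 in the ALDH+ knockout libraries. ALDH- knockout 1 was far above all other libraries for Sdhc, and without it the log2 fold change was -0.56. Sdha, the flavoprotein that binds succinate, was at -0.24, and its libraries are given with the comparison of cre drivers. Cycs, the electron carrier between complexes III and IV, was at -0.47 (limma adjusted p = 0.0925). It was at 34.5, 36 and 43.5 in the ALDH- control, 20.4 and 33.2 in the ALDH+ control, 36.6, 48, 31, 33 and 62.3 in the ALDH- knockout and 24.1, 26.2, 27.8, 44.5 and 44.2 in the ALDH+ knockout libraries. Its fractions overlapped in knockout cells and were apart in control cells.

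Among the assembly factors, Cox17 (mm9 chr16:38347085-38352849, with a transcript of 444 bases), the chaperone that carries copper in the intermembrane space, was called. It was at 246, 299 and 334 in the ALDH- control, 72.2 and 181 in the ALDH+ control, 316, 206, 210, 232 and 445 in the ALDH- knockout and 246, 200, 114, 231 and 211 in the ALDH+ knockout libraries. Its log2 fold change was -0.95 ± 0.21 (SE; limma adjusted p = 0.0137), and its lowest libraries were again ALDH+ control 1 and ALDH+ knockout 3. Bcs1l, which inserts the Rieske protein into complex III, was at -1.01 (limma adjusted p = 0.0729), and Cox18, which inserts a mitochondrially made subunit into the membrane, at -0.75 (limma adjusted p = 0.0736). Bcs1l was at 4.29, 6.16 and 5.87 in the ALDH- control, 0.62 and 2.83 in the ALDH+ control, 3.92, 4.28, 6.22, 11 and 5.16 in the ALDH- knockout and 1.87, 5.1, 5.44, 1.2 and 5.51 in the ALDH+ knockout libraries. The ALDH- control libraries were close together and the other groups ranged widely. Sco1 and Sco2, which build a copper centre of complex IV, were at -0.05 and -0.63 and did not pass the test. Sco1 was at 2.29, 2.75 and 1.53 in the ALDH- control, 1.99 and 2.02 in the ALDH+ control, 1.82, 3.53, 3.39, 1.31 and 0.898 in the ALDH- knockout and 0.551, 2.33, 1.59, 2.41 and 3.39 in the ALDH+ knockout libraries. Sco2 was at 9.03, 4.47 and 10.9 in the ALDH- control, 4.8 and 4.89 in the ALDH+ control, 1.33, 7.15, 2.68, 4.11 and 2.54 in the ALDH- knockout and 2.46, next to 0, 5.28, next to 0 and 4.51 in the ALDH+ knockout libraries. Neither showed a level that separated the fractions. Surf1, an assembly factor of complex IV, was at -0.13. It was at 23.4, 32.9 and 37.2 in the ALDH- control, 16.4 and 33.2 in the ALDH+ control, 33.2, 15.4, 12.7, 42.4 and 31.2 in the ALDH- knockout and 25.8, 26.4, 27.1, 51.8 and 19.6 in the ALDH+ knockout libraries. Its highest value was in an ALDH+ and its lowest in an ALDH- library. The heme A synthesis enzymes Cox10 and Cox15 were at -0.24 and -0.17 and did not pass the test.

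Only Cox16 and Cox11 had a positive value in this comparison. Cox11, which inserts copper into the catalytic centre and was chosen after its values were seen, was at 0.56 (limma adjusted p = 0.199). It was at 3.65, 3.93 and 6.09 in the ALDH- control, 6.72 and 6.32 in the ALDH+ control, 5.3, 2.86, 7.94, 3.44 and 1.95 in the ALDH- knockout and 8.61, 5.33, 6.22, 6.79 and 6.56 in the ALDH+ knockout libraries. Both ALDH+ control libraries lay above every ALDH- control library. Its span overlaps Tom1l1, and likewise that of Sco2 overlaps Ncaph2 and Tymp, that of Cox15 Entpd7, that of Surf1 Surf2, that of Uqcrc2 Pdzd9 and that of Cox6a2 Itgad. Reads from a stretch that both genes of a pair share may not be told apart, and overlap of their exons was not examined.

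**Figure D3:**
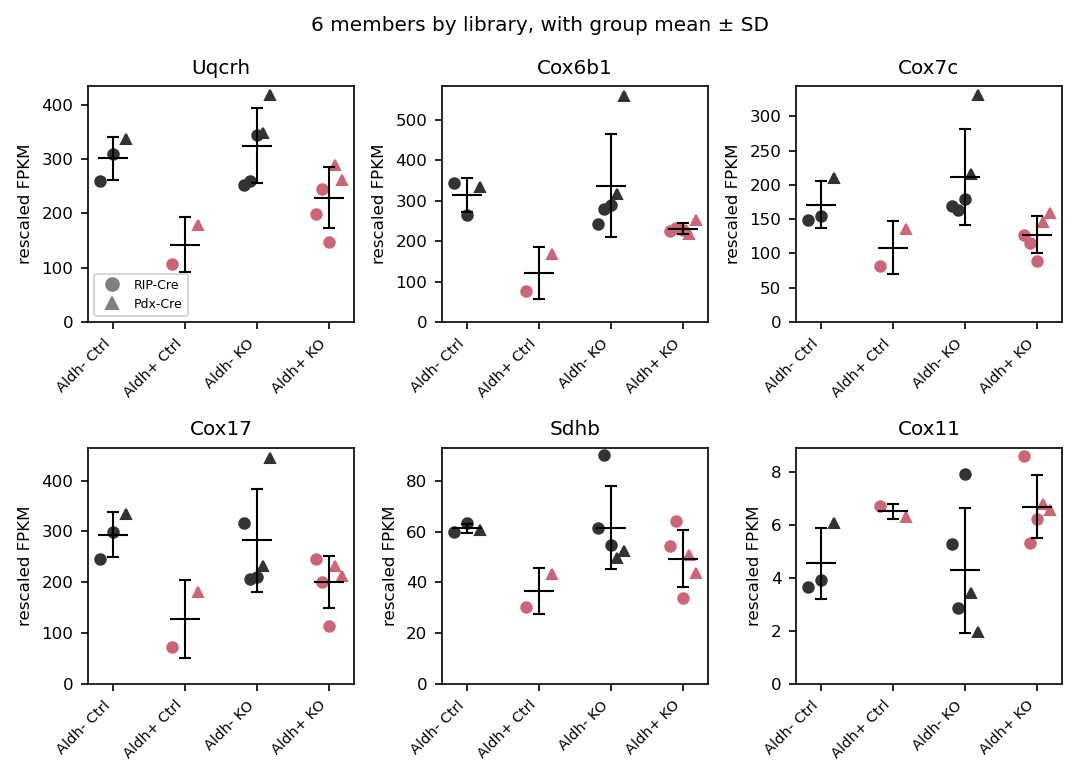
Rescaled FPKM (y axis, from 0) of 6 members in each library by group, with circles for RIP-Cre, triangles for Pdx-Cre, red for ALDH+ and black for ALDH-, and bars for the group mean ± SD (n = 3, 2, 5 and 5). For Uqcrh, Cox6b1, Cox7c and Cox17 the 2 ALDH+ control points lie below all ALDH- control points, and Cox11 runs the other way at a level under 10.

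The calls were not independent of single libraries or of transcript length. Without ALDH+ control 1, which leaves a single ALDH+ control library, the members' median was -0.56. Without both ALDH+ control 1 and ALDH+ knockout 3 it was -0.51. The calls were lost in both settings, as given below with the processing. Fold changes also followed transcript length across genes, with Spearman's rho of 0.37 over the 11137 tested genes with a length. Members are short, with a median of 1142 bases against 2810 for all tested genes and 631.5 for complex IV. Of the 961 tested genes under 1000 bases, 21.6% were lower with a median log2 fold change of -0.39, and 12 of the 17 members of that length were lower with a median of -0.81. After the length trend was subtracted, 0 members were called, where 173 of 11137 genes (1.55%) were. The median was then -0.25, and 24 of 25 subunits were still negative. After that subtraction complexes II, III and IV had medians of -0.23, -0.34 and -0.29, and assembly factors -0.22.

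**Figure D4:**
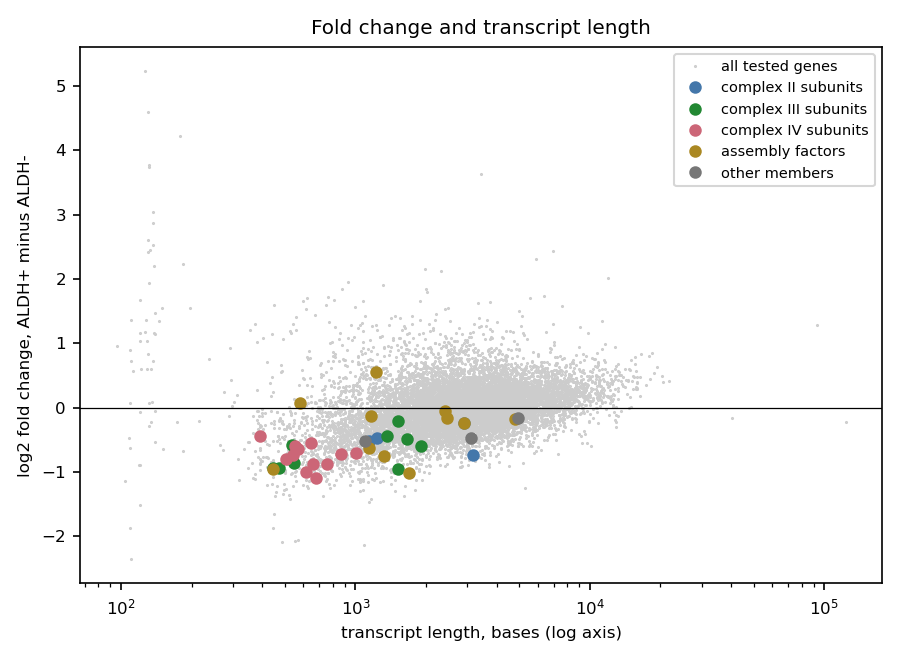
Log2 fold change, ALDH+ minus ALDH-, averaged over genotypes (y axis), against median transcript length in bases (x axis, log scale) for all tested genes (grey) and members (coloured by class). Complex IV subunits lie between 393 and 1001 bases, and all tested genes under 1000 bases have a median of -0.39.

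The listed nuclear RNAs ran in the opposite direction. Malat1, Neat1 and Meg3, long noncoding RNAs retained in the nucleus, were all higher in ALDH+ cells. Their summed level was 261 to 1582 in ALDH- and 2020 to 4785 in ALDH+ libraries without overlap. Of all genes taken singly, 0.409% were higher without overlap. The paper already names these RNAs among the top transcripts raised in ALDH+ cells of wild-type mice in this study. Their direction was therefore known beforehand, and nuclear RNAs as a class were not tested. The 2 markers of PP cells, Ppy and Pyy, were lower in ALDH+ cells at -2.1 and -2.08, with sums of 551.9 to 19760 in ALDH- and 320.8 to 4448 in ALDH+ libraries. No marker of another listed cell type was called for ALDH. The alpha cell marker Gcg missed the threshold at -2.13 (limma adjusted p = 0.0667), and the delta cell marker Sst was at -0.87. Acinar markers went the other way, with a list median of 1.24. In Pdx-Cre libraries Gcg was at 38900, 16500 and 10100 in ALDH- and at 5840, 270 and 607 in ALDH+ cells. Its fractions overlapped in RIP-Cre libraries. The part of these genes in the result was not tested. Within cre drivers the members' median was -0.68 for the 9 RIP-Cre libraries and -0.57 for the 6 Pdx-Cre libraries. Each of these fits holds a single ALDH+ control library, and their counts of calls are given below with the processing.

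The ALDH difference was then examined in each genotype. In control cells, 3 members were lower and 24 had an unadjusted p under 0.05, where 0.755% of all genes were lower and 14.3% had such a p. The 3 were Cox6b1 at -1.52, Uqcrh at -1.19 and Cox7a2 at -1.36 (limma adjusted p of 0.0350, 0.0350 and 0.0397). The count was 0 without ALDH+ control 1 or any 1 of the ALDH- control libraries, where at most 1 gene in all was called. It was 5, 6 and 9 without ALDH+ knockout 1, ALDH- knockout 5 and ALDH+ knockout 3, where 1.01%, 1.54% and 2.21% of all genes were called against 1.2% with all libraries. In control cells the 2 ALDH+ libraries lay below all 3 ALDH- libraries for 24 of 39 members, against 17.3% of all genes, and above them for Cox11, against 13.9%. Class medians were -1.01 for complex IV, -0.77 for complex III, -0.71 for complex II and -0.20 for assembly factors. In knockout cells, 0 members were called by limma and 14 had an unadjusted p under 0.05, where 0.0178% and 13.1% of all genes did so. The medians were -0.46 for complex IV, -0.47 for complex III, -0.28 for complex II and -0.24 for assembly factors, and Cox7c had the smallest p at -0.70 (adjusted p = 0.123). In knockout cells Uqcr10 and Cox7c had ALDH+ libraries wholly below ALDH-, against 0.915% of all genes, and 0 members lay wholly above, against 0.773%. Over all 15 libraries 0 members were apart in either direction, where 0.302% of all genes were lower and 0.409% higher.

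The test of the difference itself, the genotype by ALDH interaction, called 0 of 39 members by limma, with 5 at an unadjusted p under 0.05, where 0% and 4.29% of all genes did so. The smallest p was that of Cox6b1, with an interaction of 1.04 ± 0.33 (SE; limma adjusted p = 0.998), and Cox7a2, Uqcrh, Cox4i1 and Cox17 followed at 0.96, 0.68, 0.95 and 0.95. All 5 came to an unadjusted p over 0.05 without ALDH+ control 1, the lowest library for each of them among the controls. A difference in the ALDH response between genotypes was not shown for any member.

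The second question was whether loss of Foxo changed these genes. Averaged over ALDH fractions, 0 of 39 members were called by limma, where 0.116% of all genes were, and 10 had an unadjusted p under 0.05 against 7.65% of all genes. The median was 0.34 for complex IV, 0.29 for complex III, 0.13 for complex II and -0.01 for assembly factors. Cox8a, the most abundant member, had the smallest p. It was at 486, 498 and 569 in the ALDH- control, 288 and 390 in the ALDH+ control, 564, 913, 712, 681 and 968 in the ALDH- knockout and 495, 488, 506, 507 and 590 in the ALDH+ knockout libraries. In ALDH+ cells all 5 knockout libraries lay above both controls, and in ALDH- cells 4 of 5 lay above all 3. The log2 fold change was 0.59 ± 0.13 (SE; limma adjusted p = 0.141). Cox18 followed at 0.86 (adjusted p = 0.272).

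In ALDH- cells the members' median difference between genotypes was 0.02 and 0 were called, with 3 at an unadjusted p under 0.05, where 0.0178% and 5.78% of all genes did so. The smallest p were those of Cox8a at 0.53, Cox18 at 0.73 and Sdha at -0.38. In ALDH+ cells the median was 0.45, again with 0 called by limma and 12 at an unadjusted p under 0.05, where 0% and 6.64% of all genes did so. The comparisons in ALDH+ cells and within control cells share the 2 ALDH+ control libraries. Cox6b1 was at 1.06 (adjusted p = 0.394), Uqcrh at 0.73 and Cox8a at 0.64. With ALDH+ control 1 left out, which leaves a single control library there whose spread is taken from the other groups, the median was 0.26.

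The third comparison was between cre drivers. In Pdx-Cre libraries 6 members were higher and 2 lower than in RIP-Cre libraries, where 5.67% of all genes were higher, 4.03% lower and 9.69% called in all. The higher members were Cox7c (0.57), Cox7a2 (0.68), Uqcrh (0.47), Uqcrq (0.76), Cox6a1 (0.47) and Cycs (0.49), with limma adjusted p from 0.00617 to 0.0495. The lower members were Cox6a2 and Sdha. The 8 calls became 3 without ALDH+ control 1 or ALDH+ control 2, 4 without ALDH- knockout 5, and 5 without ALDH- control 1, ALDH- control 3, ALDH- knockout 1 or ALDH+ knockout 5, and 2 were lower in each case. Of all genes, 6.23% to 7.72% were called in these settings. After the length trend was subtracted 1 member was higher and 2 lower, where 7.34% of all genes were called.

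Cox6a2 (mm9 chr7:135348949-135349880, with a transcript of 680 bases) had the largest difference of any member in the comparisons made. Its level was 93.5, 140, 40.4, 244, 180, 188, 148, 101 and 104 in the RIP-Cre libraries and 40.3, 18.3, 23.2, 41.4, 14.5 and 7.91 in the Pdx-Cre libraries. The sets overlapped at ALDH+ control 1, the lowest RIP-Cre library, so that no member was wholly apart, against 0.915% of all genes lower and 1.05% higher. The log2 fold change was -2.44 ± 0.27 (SE; limma adjusted p = 5.5e-05), and an exact permutation test within groups gave a two-sided p of 0.00167, the smallest its 600 arrangements allow. It was the member called in each fraction alone, at -2.24 in ALDH- and -2.66 in ALDH+ cells (limma adjusted p of 0.00663 and 0.00336), where 2.14% and 1.52% of all genes were called. Cox6a1, its ubiquitous counterpart, was at 479, 449, 229, 443, 407, 573, 455, 366 and 302 in RIP-Cre and at 616, 384, 552, 842, 407 and 522 in Pdx-Cre libraries. As a share of the summed level of both isoforms, Cox6a2 made up 15% to 35.5% in RIP-Cre and 1.49% to 6.13% in Pdx-Cre libraries, a description chosen after the values were seen. The isoforms went in opposite directions between drivers, whereas both were lower in ALDH+ cells.

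**Figure D5:**
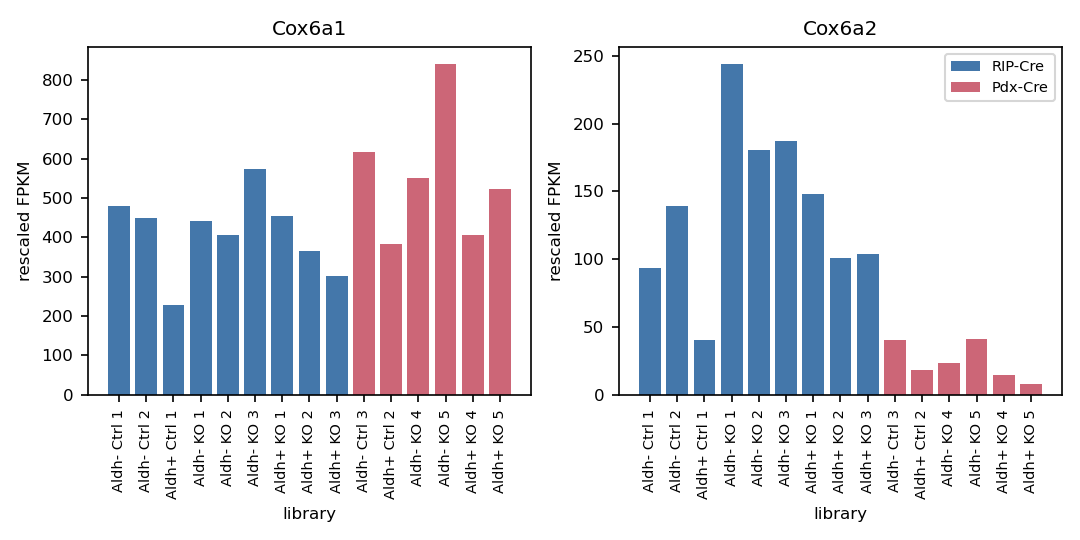
Rescaled FPKM (bars from 0) of Cox6a1 (left) and Cox6a2 (right) in each library, ordered by cre driver, with blue for RIP-Cre and red for Pdx-Cre. Cox6a2 is at most 41.4 in Pdx-Cre libraries and at least 40.4 in RIP-Cre libraries, while Cox6a1 is abundant in both.

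Sdha was at 70.6, 82.5, 58.9, 75.6, 67, 43.9, 63.5, 56.2 and 50.1 in RIP-Cre and at 54, 40.2, 34.9, 43.6, 36.1 and 38 in Pdx-Cre libraries. The sets overlapped, and the log2 fold change was -0.58 ± 0.12 (SE; limma adjusted p = 0.00881). The other complex II subunits were not called, so complex II had a median of 0.03 against 0.46 for complex IV, 0.24 for complex III and 0.06 for assembly factors. Cell type markers also differed between drivers. Of the tested cell type markers, 5 of 6 for beta cells were lower and 3 of 3 for alpha cells higher in Pdx-Cre libraries, as were Sst of the 2 for delta cells, Ppy of the 2 for PP cells and Krt19 of the 3 for duct. The summed alpha cell markers ranged from 155.1 to 1023 in RIP-Cre and from 278.9 to 38960 in Pdx-Cre libraries. Of 4 leukocyte markers, Cd68 and Cd74 were higher and the other 2 were too low to test. Ptprc was listed at 0 in 13 libraries. Lyz2 was listed at 0 in 10, with all 6 Pdx-Cre libraries among those 10. The sum of the 4 leukocyte markers, mostly Cd68, was 20.89 to 36.78 in RIP-Cre and 42.34 to 168.9 in Pdx-Cre libraries. Acinar markers summed to at most 1.73 in RIP-Cre and to 0.134 to 1442 in Pdx-Cre libraries, and 1 of 8 was called higher. The acinar Ctrb1 was at 1230, 350 and 610 in ALDH+ control 2, ALDH- knockout 5 and ALDH+ knockout 5, and at most 8.84 elsewhere. Endothelial and stromal markers summed to at most 1.48 and 0.688. The part of cell mix in the differences between drivers was not tested. The cre by ALDH interaction called 0 members by limma, with 1, Sco1, at an unadjusted p under 0.05, where 0% and 4.59% of all genes did so.

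Subunits of complexes III and IV varied together between libraries of a group. After group and cre driver were removed, the median Pearson correlation over the 15 libraries was 0.40 among the pairs within complex III, 0.42 within complex IV and 0.37 between the 2. It was 0.05 within complex II, 0.17 between complexes II and III, 0.28 between II and IV, -0.06 among assembly factors and 0.0005 over all tested gene pairs. All points share library, depth and the length trend, and the values are descriptive.

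Other genes of the pathway were taken from lists. Of 35 further assembly factors by name, 20 were listed and tested, and 2 were lower in ALDH+ cells, Ccdc56, a complex IV assembly factor also known as Coa3, at -1.01 (limma adjusted p = 0.0106) and Higd2a, a supercomplex factor, at -0.67 (limma adjusted p = 0.0182). Their list median was -0.32. Between cre drivers 1 of the 20 was called, Higd1a, a small inner membrane protein named for its induction by hypoxia, with a log2 fold change of 2.45 ± 0.27 (SE; limma adjusted p = 6.92e-05), which was at most 0.475 in RIP-Cre and between 2.33 and 9.6 in Pdx-Cre libraries. Of 18 regulators of mitochondrial gene expression by name, such as Nrf1, Gabpa and Tfam, 15 were tested and 0 were called for ALDH, cre driver or genotype by limma, with a median of 0.09 for ALDH. Ppargc1a and Ppargc1b, the coactivators of mitochondrial biogenesis, stayed under a mean of 1 and were not tested. Ndufa4, once assigned to complex I and later to complex IV, was at -0.45 (adjusted p = 0.202).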

How the data were processed

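Poly-A RNA of 15 libraries of sorted islet cells was sequenced by the authors. They deposited, per library, a gene table of FPKM with confidence bounds, aligned to mouse build mm9. The submitters' processing notes name bcl2fastq 1.8.4 and TopHat2 2.0.4, and the program that made the FPKM is not given in the sources used here. The study's methods name a negative binomial test on counts, which these values are not, so limma was used. Groups came from the labels.

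Symbols listed more than once (712 entries) were left out, as were 63 whose estimate failed or was too deep in some library, leaving 22924 genes. Libraries were rescaled with trimmed means of log ratios, without weights (trims of 30% and 5%). Log2(rescaled FPKM + 1) of the 11254 genes with a mean of at least 1 was fitted with limma 3.58.1 in R 4.3.3 (group plus cre driver, trended variance), with Benjamini-Hochberg adjustment over all of them and a threshold of 0.05. The fit was tested on simulated data. Fragments were recovered from the confidence intervals, and their error covers counting only. Lengths are medians over RefSeq-matched GENCODE M21 transcripts, found for 99% of tested genes. The length trend was a loess fit of log2 fold changes on log length across genes (span 0.5), subtracted before each gene was tested again.

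Library values were to be given for the 12 called members of smallest p for ALDH, the smallest p of each class, the Sdh genes, Cycs, isoform pairs, Surf1, Sco1, Sco2 and Bcs1l. The members, lists and comparisons were chosen with earlier results of these data known. Alternatives were another pseudocount, no filter, other rescaling, no cre term, each driver alone, length, replicate blocks, weights and leaving out each library.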

Additional observations from a re-analysis of the deposited data

Results flagged for a closer look

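Among 78 combinations of a tested member and a knockout group of 5 libraries, 6 held a library far from the other 4 by Dixon's test (critical value 0.71), and chance alone flags about 1 in 20. Of the 6, 4 were the low library ALDH+ knockout 3. There Uqcr10 was at 140 against 241 to 279 in the other ALDH+ knockout libraries, Cox6c at 111 against 241 to 297, Cox17 at 114 against 200 to 245 and Cox4i1 at 123 against 206 to 254. Cox8a was at 590 in ALDH+ knockout 5 against 488 to 507 in the others, and Uqcrc1 at 57.1 in ALDH- knockout 5 against 29.8 to 35.3.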

How the results depend on the processing

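The 15 calls for ALDH averaged over genotypes became 3 with no cre driver in the model, 5 in RIP-Cre libraries, 0 in Pdx-Cre libraries, 0 with the length trend removed, 1 with a replicate block and 0 without both ALDH+ control 1 and ALDH+ knockout 3. A block within cre driver gave 7. Of all genes, 5.99% were called with all libraries, against 1.62%, 1.4%, 0.0354%, 1.55%, 0.195% and 0.0267% in the first 6 of these settings and 2.21% with the block within cre driver. That block and the removal of both libraries were chosen after seeing the data, and in that block ALDH- control 2 has no partner, so the named members' values are those found without it. Leaving out 1 library gave 0 (ALDH+ control 1) to 19 (ALDH- knockout 4). Other rescaling, no filter, array weights and a pseudocount of 0.1 kept the count within 1.5 times, and the 15 members were negative under all 27 alternatives. The 3 calls in control cells became 13 with the compared groups only, 14 with array weights and 1 in RIP-Cre libraries, where 4.07%, 4.99% and 0.18% of all genes were called against 1.2%. They became 0 with no cre driver, in Pdx-Cre libraries, with the length trend removed, with either block and without both libraries, where at most 0.0539% of all genes were called, and ranged from 0 to 9 with 1 library left out. The 8 calls for cre driver became 5 with no filter, 5 with FPKM not rescaled, 3 with the length trend removed, 4 without both libraries, where 5.3%, 9.5%, 7.34% and 6.3% of all genes were called against 9.69%, and 3 to 9 with 1 library left out. In the other comparisons the count was 0 under every alternative that was run. Whether replicate numbers pair the libraries was not settled, except that control 2 is RIP-Cre in ALDH- and Pdx-Cre in ALDH+ cells. That pair of the replicate block thus joins different drivers. Same-numbered libraries deviated with correlations of -0.0447 to 0.0701. In knockout cells their range was -0.0438 to 0.0701, against -0.289 to -0.0615 for differently numbered libraries of the same driver. In control cells the values mirror each other by construction and cannot decide it. What the libraries in the other pairs of a replicate block share is therefore not known. For ALDH, Sco1 changed sign to 0.57 in Pdx-Cre libraries, 0.00213 with the length trend removed, 2.81e-05 with the block within cre driver and 0.0393 without both libraries, and ran from -0.15 to 0.0862 with 1 library left out. Cox7a1 was at 0.18 with the length trend removed and from -0.99 to 0.0526 with 1 library left out, and Surf1 at 0.14 with the length trend removed. Beyond the fewer samples or genes in some alternatives, the cause of these changes was not tested. The 2 ALDH+ control libraries limit each comparison that uses them.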
